A study of Rattus norvegicus with 24 samples.

Results

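The BCL2 family decides, at the outer membrane of the mitochondrion, whether a cell survives or dies by apoptosis. Its members were chosen by name: every probe of the value table whose platform annotation carries the symbol of 1 of 10 listed genes was taken. The rule itself uses no measured value, but the genes were listed with earlier results of these data known. All 10 genes were found, out of 13337 genes with a symbol, and they carried 12 of the 22523 probes. Bcl2l1 and Bcl2l11 had 2 probes each and the other genes had 1 each.

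The RNA came from tissue labelled right cortex of male Wistar rats weighing 250 to 300 g, measured on 24 Illumina RatRef-12 version 1 arrays, with 4 arrays in each of 6 groups. The arrays lay on 2 slides, with 2 arrays of every group on each. Treatment rats had permanent occlusion of the middle cerebral artery and an injection into the cerebral ventricle of 30 mM ZM447439, an inhibitor of Aurora kinases, in 80% dimethyl sulfoxide (DMSO). Vehicle rats had the same occlusion and 80% DMSO alone, and sham rats had the operation without occlusion, with no injection named. Each of the 3 conditions was collected at 24 h and at 8 h. The protocol names the left artery whereas the tissue is labelled right cortex, and the sources used here do not settle which side was sampled. Whether every array came from its own animal is not stated in the labels.

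BCL2 proteins fall into 3 classes. The survival proteins (Bcl2, Bcl2l1, Bcl2l2, Mcl1, Bcl2a1) hold the effectors in check. The effectors Bax and Bak1 form the pores through which cytochrome c leaves the mitochondrion. The BH3-only proteins (Bid, Bad, Bcl2l11) carry damage signals to the rest of the family. Neurons of the adult brain are not replaced when they die, and interruption of the blood supply engages both sides of this balance.

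The upstream sequences of 3 members are shown because these members had the largest differences between 24 h and 8 h described below, 1 in one direction and 2 in the other. Each is the 250 bases before the transcript start in the RefSeq promoter table (GRCr8), all on the plus strand, at chr8:98596556-98596805 for Bcl2a1, chr15:32326511-32326760 for Bcl2l2 and chr2:185907918-185908167 for Mcl1. Capitals mark matches, on either strand, to any of 7 motifs.
Bcl2a1: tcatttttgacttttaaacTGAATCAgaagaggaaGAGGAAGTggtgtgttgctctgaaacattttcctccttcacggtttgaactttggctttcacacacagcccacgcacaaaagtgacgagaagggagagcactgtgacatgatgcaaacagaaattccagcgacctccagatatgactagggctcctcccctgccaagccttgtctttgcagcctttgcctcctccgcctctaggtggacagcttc
Bcl2l2: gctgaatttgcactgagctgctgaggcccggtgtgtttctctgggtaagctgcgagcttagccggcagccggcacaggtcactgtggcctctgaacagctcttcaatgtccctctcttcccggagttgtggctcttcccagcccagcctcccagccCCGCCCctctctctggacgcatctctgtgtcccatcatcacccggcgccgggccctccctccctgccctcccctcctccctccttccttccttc
Mcl1: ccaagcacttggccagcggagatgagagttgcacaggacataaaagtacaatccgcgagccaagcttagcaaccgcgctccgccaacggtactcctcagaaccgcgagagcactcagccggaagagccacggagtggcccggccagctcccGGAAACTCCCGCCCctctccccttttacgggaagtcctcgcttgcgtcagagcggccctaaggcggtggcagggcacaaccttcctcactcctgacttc

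The motifs searched were NF-kB, PU.1 (GAGGAAGT), AP-1 (TGANTCA), CRE (TGACGTCA), the GC box (GGGCGG), the TATA box (TATAAA) and the CCAAT box (CCAAT). They were chosen after these sequences had been seen, and a match is a description of letters, not of binding. The Bcl2a1 sequence held 1 AP-1 match and 1 PU.1 match, starting 231 and 215 bases before the transcript start. Among all 33469 upstream sequences of the table, 6.34% held an AP-1 match and 2.04% a PU.1 match. The Bcl2l2 sequence held 1 GC box match, starting 94 bases before the start, a motif found in 30.5% of all sequences. The Mcl1 sequence held an NF-kB match (6.33% of all sequences), whose end overlaps a GC box match, starting 99 and 91 bases before the start. The GC content was 48.8% for Bcl2a1, 64% for Bcl2l2 and 62% for Mcl1, and the median over the table was 51.2%. Of the 10 genes, 9 had an entry in this table, and Bax had none. In the other members the PU.1 letters also occurred upstream of Bcl2 and Bak1, so they were not particular to Bcl2a1.

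The values were the linear intensities that the authors deposited. Within each time point the 12 columns were 1 probe profile multiplied by 1 factor per array: after that factor was removed, no probe departed from the common profile by more than 2.87e-07 on the log2 scale at 24 h or 2.97e-07 at 8 h. The median intensity per array ran from 76.8 to 115 at 24 h and from 65.3 to 90.1 at 8 h. Treatment, vehicle and sham arrays of a time point therefore carry no separate measurement of any BCL2 gene, and the effect of occlusion or of ZM447439 on these genes was not analysed here. What can be described is the 24 h profile beside the 8 h profile, each after division by the array median. A level is given below as times the array median, and a difference as log2 of the 24 h level over the 8 h level. With 1 profile per time point no difference has a replicate check, a standard error or a p-value, and the arrays behind each profile are not known. Time after surgery, occlusion and treatment cannot be told apart in it. A difference of 1.5-fold (0.58 on the log2 scale) is used as a size, not as a test.

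Over the 12 probes, the survival gene Bcl2a1 was higher in the 24 h profile by 0.80 log2, whereas the survival genes Bcl2l2, Mcl1 and, at 1 of 2 probes, Bcl2l1 were lower by smaller amounts. The effectors and the BH3-only genes differed by no more than 0.14 log2 in either direction with profiles divided by their median, and by up to 0.35 in size under the other settings. In all, 6 probes were higher and 6 lower at 24 h, beside 46.9% and 53.1% of all probes. These directions are relative to the array median: without division by it, every probe's difference was larger by 0.18 log2, and 9 member probes were higher and 3 lower. The median over the members was -0.05, and over all 22523 probes it was -0.01. One probe was at least 1.5-fold higher and 0 at least 1.5-fold lower, against 0.617% and 0.497% of all probes.

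**Figure D1:**
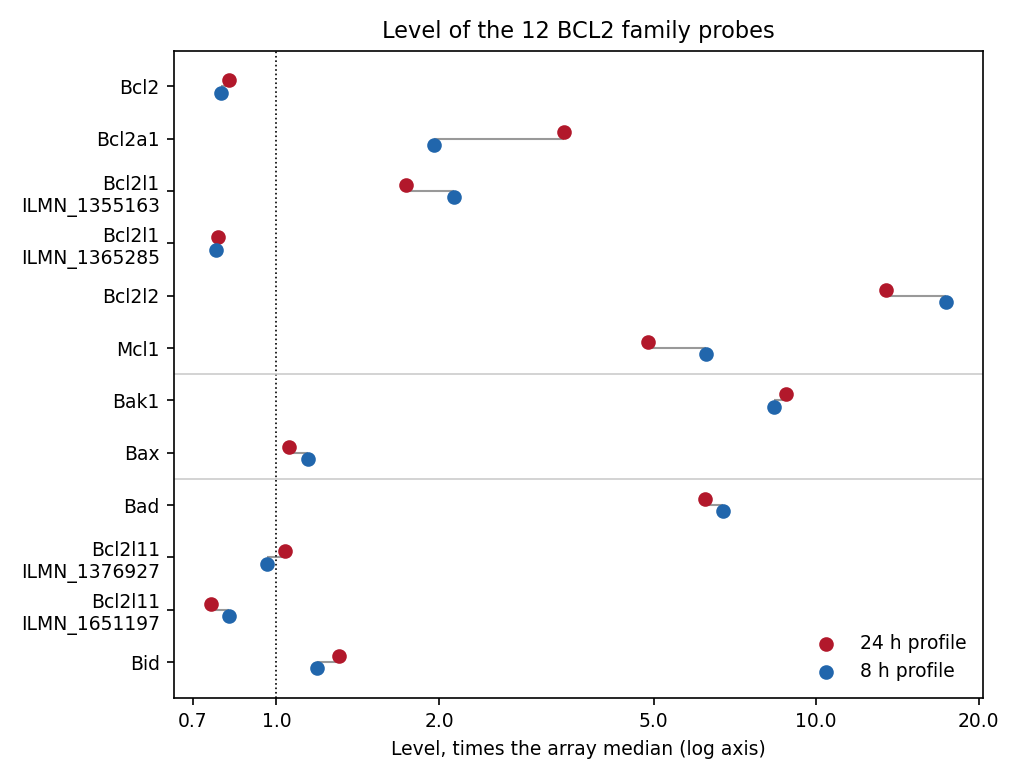
Level of each of the 12 BCL2 family probes in the 24 h profile (red) and the 8 h profile (blue), in times the array median on a log axis, with survival genes above, effectors in the middle and BH3-only genes below, and a dotted line at the array median. Bcl2a1 has its red point well to the right of its blue point (3.41 and 1.96), and Bcl2l2 and Mcl1 have theirs to the left. Levels of different probes are not comparable, since probes differ in how strongly they bind.

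Among the survival genes, Bcl2a1 encodes A1, a short-lived protein of leukocytes that is transcribed in response to NF-kB. Its probe (ILMN_1354419) ran from 262 to 392 intensity units over the 12 columns at 24 h, with a median of 299.7, and from 128 to 176 over the 12 columns at 8 h, with a median of 156. The columns of both times did not overlap, a separation that 4.52% of all probes showed with 24 h higher. Since the columns repeat 1 profile per time, overlap follows from the profile difference and the array medians, and adds nothing to the difference. The array medians ran higher at 24 h, so a probe lower at 24 h needs a larger difference to separate. Its level was 3.41 at 24 h and 1.96 at 8 h, a 1.74-fold ratio. Only 70 of the 22523 probes had a larger positive difference. Over 5 other ways of scaling or background correction, the difference ran from 0.85 to 1.12.

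The same intensities can be read by group, with the reservation that they repeat 1 profile per time. Bcl2a1 stood at 295 to 344 in treatment arrays, 282 to 392 in vehicle arrays and 262 to 309 in sham arrays at 24 h. At 8 h it stood at 128 to 176 in treatment arrays, 150.4 to 176 in vehicle arrays and 146 to 165 in sham arrays. The groups of each time overlapped, and these ranges show the arrays' factors, which every other probe shares, and nothing of Bcl2a1 itself.

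**Figure D2:**
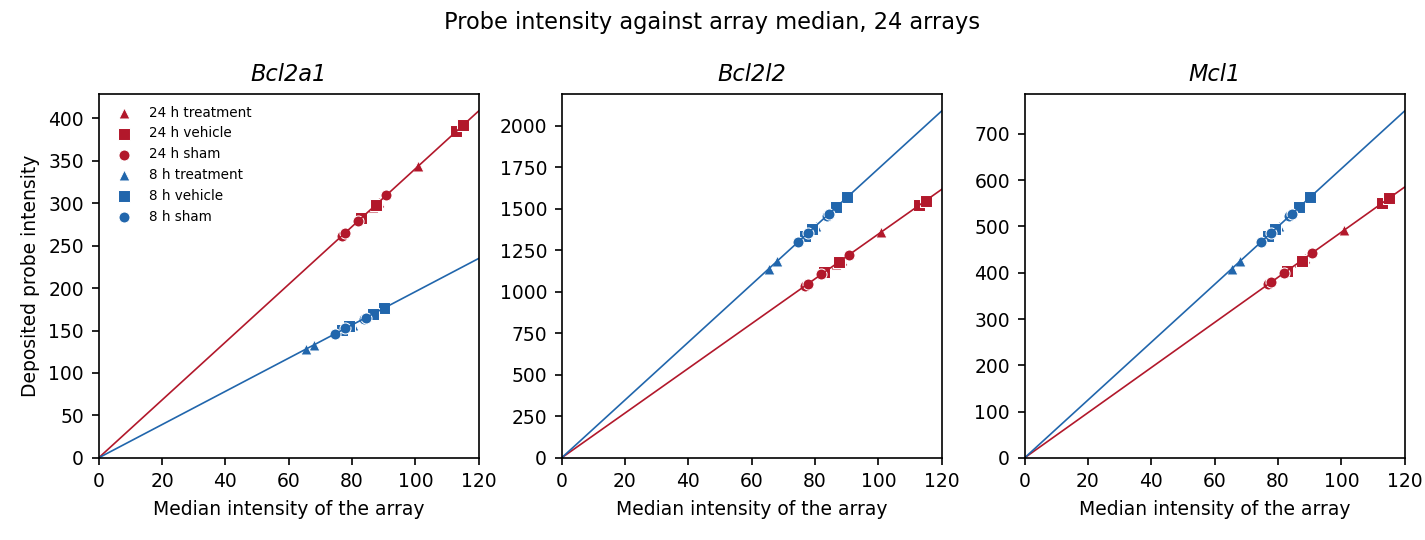
Deposited intensity of the Bcl2a1, Bcl2l2 and Mcl1 probes (vertical axes) against the median intensity of the array (horizontal axes) for 24 arrays, red for 24 h and blue for 8 h, with triangles for treatment, squares for vehicle and circles for sham. Lines run from the origin with the slope of each profile's level. All arrays of a time lie on 1 line whatever their group, with the 24 h line steeper for Bcl2a1 (3.41 against 1.96) and shallower for Bcl2l2 (13.5 against 17.4) and Mcl1 (4.88 against 6.25).

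Bcl2l2 encodes Bcl-w, a survival protein abundant in mature neurons. Its intensity ran from 1036 to 1550 at 24 h (median 1186) and from 1138 to 1570 at 8 h (median 1388), so the columns overlapped. Its level was 13.5 in the 24 h profile and 17.4 in the 8 h profile, a log2 difference of -0.37. Of all probes, 602 had a lower difference. The range over the 5 alternatives was -0.37 to -0.29, and the value without division by the median was -0.19.

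Mcl1 encodes a survival protein that is rapidly turned over, so that its amount follows its synthesis closely. Its intensity ran from 375 to 561 at 24 h (median 429) and from 408 to 563 at 8 h (median 498), again with overlap. The level was 4.88 in the 24 h profile and 6.25 in the 8 h profile, a log2 difference of -0.36, with 657 probes lower. Over the alternatives this difference ran from -0.39 to -0.26, and without division by the median it was -0.17. Bcl2l2 and Mcl1 were the members past a smaller size, 0.32 on the log2 scale, on the lower side, 2 of 12 probes beside 3.83% of all probes, and Bcl2a1 was the member past it on the higher side, beside 2.45% of all probes. Both lower members fell short of that size under 5 of the 6 other settings, whereas Bcl2a1 was past it under all 6. After subtraction of the 1st percentile, 3 of the 10 member probes measured were past it on the lower side and 3 on the higher side. That setting also widened the differences of all measured probes, with a standard deviation of 0.35 against 0.17 in the main setting. The share of all probes past the smaller size was not counted there, so these counts are not read as a result about the family.

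Bcl2l1, which encodes the long form Bcl-xL and the short form Bcl-xS by splicing, gave different values at its 2 probes. One probe (ILMN_1355163) had a level of 1.74 in the 24 h profile and 2.14 in the 8 h profile, a log2 difference of -0.30, with a range over the alternatives of -0.46 to -0.24 and a value of -0.12 without division by the median. The other (ILMN_1365285) had levels of 0.779 at 24 h and 0.771 at 8 h, a difference of 0.01. The second probe lay below the array median in both profiles, where a beadchip probe carries little signal above background, so the probes' disagreement of 0.31 log2 does not show which one follows the transcript. Which splice form each probe reads was not analysed here.

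Bcl2, the founding member, had a level of 0.818 in the 24 h profile and 0.789 in the 8 h profile, a difference of 0.05. Its level was below that of a typical probe at both times. After subtraction of the 1st percentile as background its difference was 0.36, so the size of the Bcl2 difference depended on the background taken off.

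Of the effectors, Bak1 had a level of 8.78 at 24 h and 8.37 at 8 h, a difference of 0.07, and 0.09 to 0.16 over the alternatives. Bax had a level of 1.05 at 24 h and 1.15 at 8 h, a difference of -0.12 that turned to 0.06 without division by the median (-0.32 to -0.06 over the other alternatives). Both lay inside the range from -0.29 to 0.22 that holds the central 5th to 95th percentiles of all probes.

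Of the BH3-only genes, Bad, whose protein is held inactive by phosphorylation downstream of growth factor signals, had a level of 6.22 at 24 h and 6.73 at 8 h. Its difference was -0.11, with -0.02 after cyclic loess normalization and 0.07 without division by the median. Bid, cleaved by caspase-8 to link death receptors to the mitochondrion, had a level of 1.31 at 24 h and 1.19 at 8 h, a difference of 0.14 (0.13 to 0.32 over the alternatives). Bcl2l11, which encodes Bim, had 1 probe (ILMN_1376927) at 1.03 in the 24 h and 0.962 in the 8 h profile and a second (ILMN_1651197) at 0.757 and 0.816. These differed in sign, at 0.11 and -0.11 (0.29 and 0.08 without division by the median). The first reached 0.35 after subtraction of the 1st percentile, and both were near or below the level of a typical probe.

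**Figure D3:**
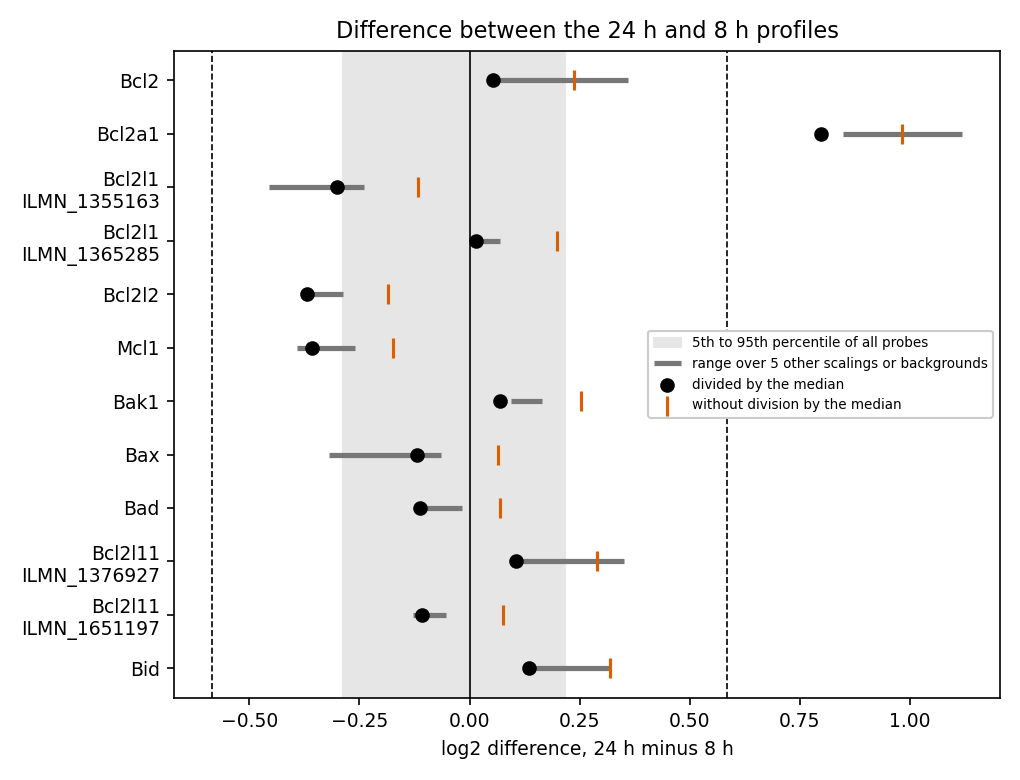
Log2 difference between the 24 h and 8 h profiles for each BCL2 family probe (black points), with the range over up to 5 other scalings or background corrections (grey bars) and the value without division by the array median (orange ticks). The shaded band spans the 5th to 95th percentile of all probes and the dashed lines mark 1.5-fold. Bcl2a1 lies beyond the upper dashed line under each setting shown, and Bcl2l2, Mcl1 and 1 Bcl2l1 probe lie at or beyond the lower edge of the band when divided by the median.

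A gap between the differences of 2 members does not depend on the array's factor. The difference of Bcl2a1 exceeded that of Bak1 by 0.73 log2 and that of Bax by 0.92. For Mcl1 the gap was -0.43 against Bak1 and -0.24 against Bax, and for Bcl2l2 it was -0.44 against Bak1 and -0.25 against Bax. Of the 12 pairs of a survival probe and an effector probe, 4 gaps were positive and 8 negative. The gaps did depend on the background taken off. After subtraction of the 1st percentile, Mcl1 differed by -0.39, Bcl2l2 by -0.37, Bax by -0.32 and Bak1 by 0.09. The gaps of Mcl1 and Bcl2l2 thus shrank against Bax and grew against Bak1. The gap of Bcl2 (0.36 there) against Bak1 turned from -0.02 to positive. The survival genes thus lay on both sides of the effectors.

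Markers of cell types were set beside these differences, each pair of levels being that of the 24 h profile and that of the 8 h profile. Of 10 microglia and macrophage marker probes, 9 were higher at 24 h (median 0.47), and the summed level was 95.3 at 24 h and 55.1 at 8 h. Among them, Aif1 stood at 33.3 at 24 h and 15.7 at 8 h, and C1qb at 32.6 and 17.9. The Fc receptor gene Fcgr3a stood at 4.22 and 1.93, and Tyrobp at 3.24 and 2.02. Of 10 neutrophil probes, 4 were higher and 6 lower, turning to 6 and 4 with the 75th percentile and 8 and 2 without division by the median (summed level 11.3 at 24 h and 14.5 at 8 h), and 2 stood at or above the array median in both profiles. These were S100a8, at 2.46 and 5.05, and Mmp9, at 1.96 and 2.65. Of 7 lymphocyte probes, 4 were higher, or 6 with the 75th percentile and 7 without division by the median (summed level 6.38 and 6.25). Only 1 stood at or above the median in both profiles, the T cell receptor chain gene Cd3e at 1.12 and 1.21. The part of any of these cells in the Bcl2a1 difference was not tested. In a tissue extract, fewer cells of a type and less RNA per cell cannot be told apart.

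Beside the lower values of Bcl2l2, Mcl1 and 1 of the 2 Bcl2l1 probes, 11 of 12 neuron probes were lower at 24 h, or 5 of 12 without division by the median (median -0.15, summed level 508 at 24 h and 565 at 8 h), including the neurofilament gene Nefl at 38.4 and 52.7 and the kinase gene Camk2a at 2.10 and 2.67. Oligodendrocyte markers were lower in 7 of 9 probes (median -0.39, summed level 325 and 423), with the myelin genes Mal at 54.9 and 91.0 and Mobp at 43.1 and 66.0. Astrocyte markers were higher in 3 of 7 probes, or in 4 to 7 under 5 of the 6 other settings (median -0.02, summed level 621 and 522), with Gfap at 241 and 124 and the water channel gene Aqp4 at 3.99 and 3.08. Without Gfap the summed level was 380.2 and 398, with 2 of 6 probes higher. Endothelial markers were higher in 5 of 6 probes, or in 4 after quantile normalization and 6 without division by the median. Their median was 0.02 and their summed level 46.4 and 44.1, with Vwf at 7.25 and 5.31 and Tek at 1.39 and 1.15. The part of these cells in the members' values was not tested. Markers of neighbouring tissue also differed, with 8 of 9 striatum probes higher (summed level 138 and 97.6; Adora2a at 18.4 and 7.73, Tac1 at 14.7 and 6.81, Rgs9 at 14.7 and 7.14). Of 7 choroid plexus probes 5 were higher (summed level 91.9 and 69.2), and 2 stood at or above the array median in both profiles. These were Ttr, at 30.1 and 5.10, and Enpp2, at 56.0 and 59.8. The rise of Ttr alone was larger than the rise of the sum.

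The other genes of the pathway came from 3 lists. Of 15 further BCL2 family and BNIP genes, 14 were measured, 9 higher and 5 lower at 24 h, with a median difference of 0.04. Bnip3, a hypoxia-induced mitochondrial protein that starts mitophagy, was the member past 1.5-fold, with a level of 27.8 at 24 h and 44.2 at 8 h (difference -0.67). Hrk, a neuronal BH3-only gene, had levels of 4.00 at 24 h and 4.59 at 8 h (-0.20). The probes of the BH3-only genes Pmaip1, Bmf and Bik lay below the array median in both profiles.

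Of 20 genes that act at or after mitochondrial release, 15 were measured, 6 higher and 9 lower (median -0.10), none past 1.5-fold in either direction. The caspase inhibitor gene Birc2 had a level of 4.94 at 24 h and 6.41 at 8 h (-0.38), and Casp9, the initiator caspase of the apoptosome, had 3.74 at 24 h and 4.49 at 8 h (-0.27). The probe of Cycs, cytochrome c itself, had levels of 107 at 24 h and 114 at 8 h (-0.09), and that of Apaf1, the scaffold of the apoptosome, had 1.51 at 24 h and 1.43 at 8 h (0.08).

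Of 35 upstream regulators and partners, 30 were measured, 13 higher and 17 lower (median -0.06). Bag3, a co-chaperone that binds BCL2, was the member past 1.5-fold, with a level of 7.32 at 24 h and 11.6 at 8 h (-0.67). The death receptor gene Tnfrsf1a had 3.75 at 24 h and 4.61 at 8 h (-0.30). The NF-kB subunit gene Rela had 2.21 at 24 h and 2.16 at 8 h (0.03). The median of this list was 0.0081 after cyclic loess and 0.12 without division by the median, and that of the mitochondrial list was 0.081 without that division, so the direction of both depended on the scaling.

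**Figure D4:**
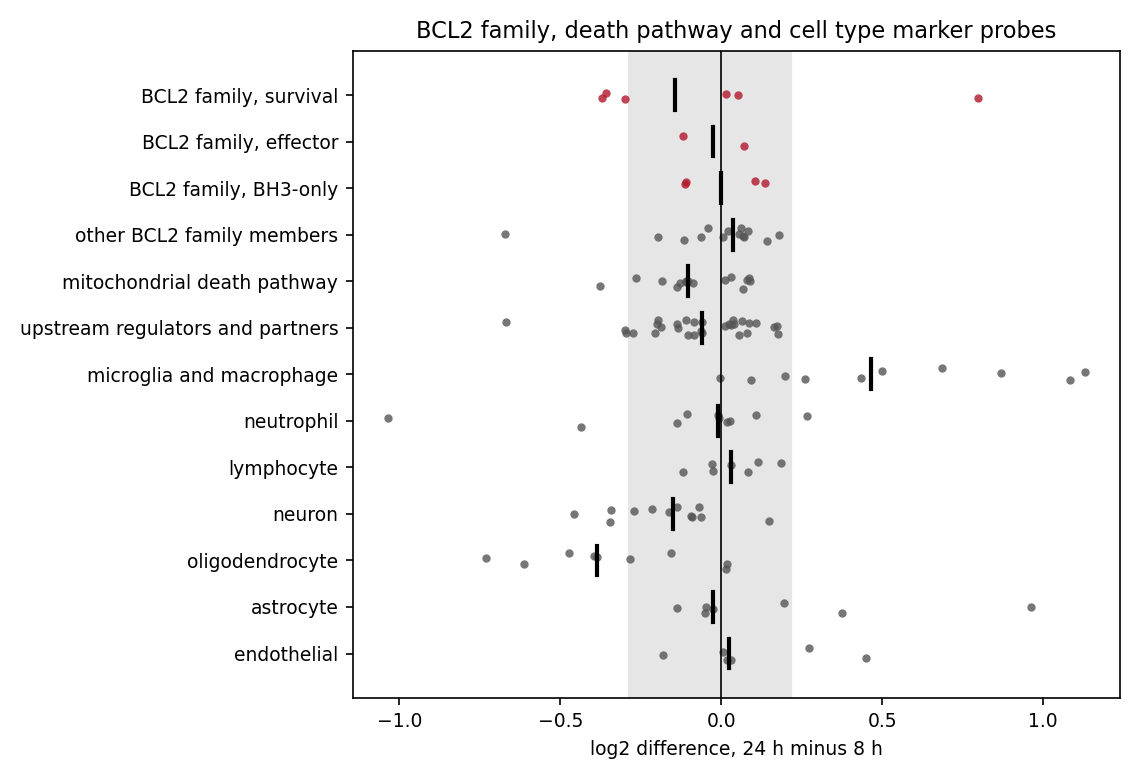
Log2 difference between the 24 h and 8 h profiles for every measured probe of the BCL2 family classes (red), the pathway lists and the cell type marker lists (grey), with a black bar at each list's median, small vertical scatter for visibility and a band for the 5th to 95th percentile of all probes. The striatum and choroid plexus markers are not drawn. The Bcl2a1 point at 0.80 lies apart from the other survival genes, and most microglia and macrophage probes lie to the right of the band.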

How the data were processed

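Per the labels, biotinylated cRNA was hybridised to Illumina beadchips. The authors deposited linear intensities for 22523 probes, and their background correction and normalization are not given in the sources used here. Another 24 columns, non-normalized per the file headers, have only running numbers for names, match no sample and were not used. Groups came from the sample titles. The planned limma comparison of treatment, vehicle and sham arrays could not be fitted, because the 12 columns of a time point were 1 profile times 1 factor per array. Columns were scaled to a median of 1, those of the same time were averaged on the log2 scale, and the log2 difference was the 24 h minus the 8 h profile. No filter was applied. Alternatives used limma 3.58.1 in R 4.3.3. The procedure was tested on simulated data built as 1 profile per time point multiplied by 1 factor per array, without noise in the probes. That test checks the arithmetic only, not how reliable a difference is. All 10 genes matched the RefSeq gene table (GRCr8) by gene identifier. From each list other than the members, the 2 genes with the largest absolute difference at or above the array median in both profiles were named, and those past 1.5-fold at 1.5 times the median or more. Cycs, Apaf1, Rela, Pmaip1, Bmf and Bik were named for their roles, after their values were seen. The planned list of genes with levels nearest to Bcl2a1 is not reported, since it sets levels of different probes against each other. The members and lists were chosen with earlier results of these data known.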

Additional observations from a re-analysis of the deposited data

Results flagged for a closer look

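One array stood apart in its group. The median intensity of replicate 2 of the 24 h treatment group was 100.9, while the other arrays of the group lay between 86.7 and 88.6. Of 6 groups of 4 arrays this was the one in which an array's gap to its nearest neighbour, relative to the range of the group, exceeded Dixon's 95% limit, which chance passes in about 1 group of 20. All BCL2 family intensities of that array share this factor, which division by the median removes, and the members' differences without that replicate number moved by at most 3.87e-08 on the log2 scale.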

How the results depend on the processing

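The profiles were also scaled by quantile normalization, by cyclic loess and by their 75th percentiles, and corrected for background by taking off the 1st percentile (floor 8) or by normexp (offset 50, then quantile normalization). Each member probe kept its sign under all of these that measured it. The subtraction left 1 Bcl2l1 probe and 1 Bcl2l11 probe at the floor. Bcl2a1 was past 1.5-fold in all 5, and no other member probe was. A sixth setting, without division by the median, was chosen after seeing the data and raised every difference by 0.18. There 3 member probes were lower, Bcl2l2 (-0.19), Mcl1 (-0.17) and 1 Bcl2l1 probe (-0.12), with a member median of 0.14, while Bad, Bax and the second Bcl2l11 probe turned positive. It gave 357 probes higher and 52 lower by 1.5-fold, against 139 and 112 with division, and list medians of 0.22 (other BCL2 family), 0.081 (mitochondrial death pathway) and 0.12 (upstream regulators). Subtraction, which left 17439 of the 22523 probes measured, gave 761 higher and 629 lower by that size. The 75th percentile gave a member median of 0.0077 and list medians, in that order, of 0.093, -0.048 and -0.0059. The mitochondrial list had -0.044 after quantile normalization, -0.017 after cyclic loess and -0.045 after normexp, and the upstream list -0.0020, 0.0081 and -0.0017, and both lists were positive without division. Without the lower 50% of probes, 8 member probes stayed, 3 of them higher (37.5%), with a median of -0.12, beside 39.2% higher and a median of -0.05 over all 11261 probes kept. At the smaller size of 0.32 log2, 2 member probes were lower (0 under 5 of the 6 other settings and 3 of 10 measured after subtraction). In the main setting 551 probes in all were higher and 862 lower by that size. No paired analysis was possible because the columns of a time point, apart from their factors, hold no variation to fit. Slide and replicate blocks could not be fitted for the same reason. The arrays of a time add no precision to a member's difference, since they repeat 1 profile. The probes of Bcl2 and Bcl2l11 and 1 of Bcl2l1 were dim, among the lower 50% of probes, and that of Bax lay close above the array median.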
